A study of Mus musculus with 6 samples.

Results

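The genes described here encode the proteins that join epithelial cells to each other: claudins and other tight junction proteins, the cadherins and plaque proteins of desmosomes, and the cadherins and catenins of adherens junctions. They were chosen by name, with earlier results of these data known, as 37 gene symbols among the 48709 genes of the deposited count table. All 37 were found. Gene expression was measured by RNA sequencing of total RNA from the gingiva, the gum tissue around the teeth, of C57BL/6 mice aged 12 weeks. The 3 libraries labelled Plg KO came from mice that lack Plg, the gene of plasminogen, and the 3 libraries labelled Plg WT from wild-type littermates. The labels give no other allele or treatment and do not describe how Plg was disrupted. Nothing in them ties a library to an animal of its own, and p-values therefore reflect the spread between the 6 libraries, technical or not.

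Tight junctions seal the space between neighbouring cells near their outer surface. Claudins form the sealing strands and set which ions pass, while the cytoplasmic ZO proteins tie the strands to actin. Adherens junctions hold cells together through cadherins linked to actin by catenins, and desmosomes do so through desmogleins and desmocollins linked to keratin filaments by plakoglobin, plakophilins and desmoplakin. In a stratified epithelium such as the gingiva, desmosomes carry most of the mechanical load, and several desmosomal cadherins change as keratinocytes leave the basal layer. Plasmin, the product of plasminogen, is known mainly as the protease that dissolves fibrin.

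Libraries held 26183389 to 36429150 counts in Plg KO and 28184139 to 36006829 in Plg WT. Plg itself had 2 counts over the 3 Plg KO libraries and 2 over the 3 Plg WT libraries, so it gives no check of the genotype labels in this tissue. Levels are given as CPM, in which counts are scaled by library size and TMM factors. The basal keratin Krt14 ran from 13590.5 to 15964.5 CPM in Plg KO and from 14910.9 to 16723.9 in Plg WT, and the mucosal keratin Krt13 from 6796.3 to 7529.6 CPM in Plg KO and from 6501.4 to 8237.4 in Plg WT. Other tissue was present too, since 5 skeletal muscle genes summed to 2077.8 to 9721.8 CPM in Plg KO and to 4893.3 to 9271.8 in Plg WT. In bulk tissue, fewer cells of a type and less RNA per cell cannot be told apart.

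Scaled by exon length, desmosomal genes dominated. Desmosomal plaque and envelope genes took 68.4% to 75.8% of the summed per-length level of the 37 genes in Plg KO libraries and 72.6% to 79.7% in Plg WT libraries. This class as used here also holds Perp, a membrane protein, which was its largest part. The sum over the 37 genes was 2013.6 to 2782.9 CPM per kilobase in Plg KO and 2263.0 to 2718.9 in Plg WT. Claudins took 6.97% to 11.5% in Plg KO and 3.77% to 10.1% in Plg WT. The highest level belonged to Perp, a membrane protein that desmosomes of stratified epithelia need, with 1109.5 ± 280.9 CPM per kilobase in Plg KO and 1229.2 ± 198.7 in Plg WT (SD, n = 3 each). Jup, which encodes plakoglobin, came next with 174.2 ± 34.7 CPM per kilobase in Plg KO and 210.8 ± 25.3 in Plg WT. It was followed by the plakophilins Pkp1 and Pkp3 and by Dsp, which encodes desmoplakin, with library values that overlapped. Dsc2 led the desmosomal cadherins, at 86.3 ± 12.4 CPM per kilobase in Plg KO and 80.2 ± 6.50 in Plg WT. F11r, an adhesion molecule of tight junctions, and Cgn, which encodes the actin-linking protein cingulin, led the tight junction genes outside the claudins. At the low end, Pkp2, the plakophilin known from heart muscle, had 0.317 ± 0.0539 CPM per kilobase in Plg KO and 0.178 ± 0.119 in Plg WT. Dsg1c was close to undetected, with 9, 0 and 11 counts in Plg KO 1, 2 and 3 and 3, 9 and 2 counts in Plg WT 1, 2 and 3, and it was the 1 gene of the 37 that did not pass the filter on low counts.

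**Figure D1:**
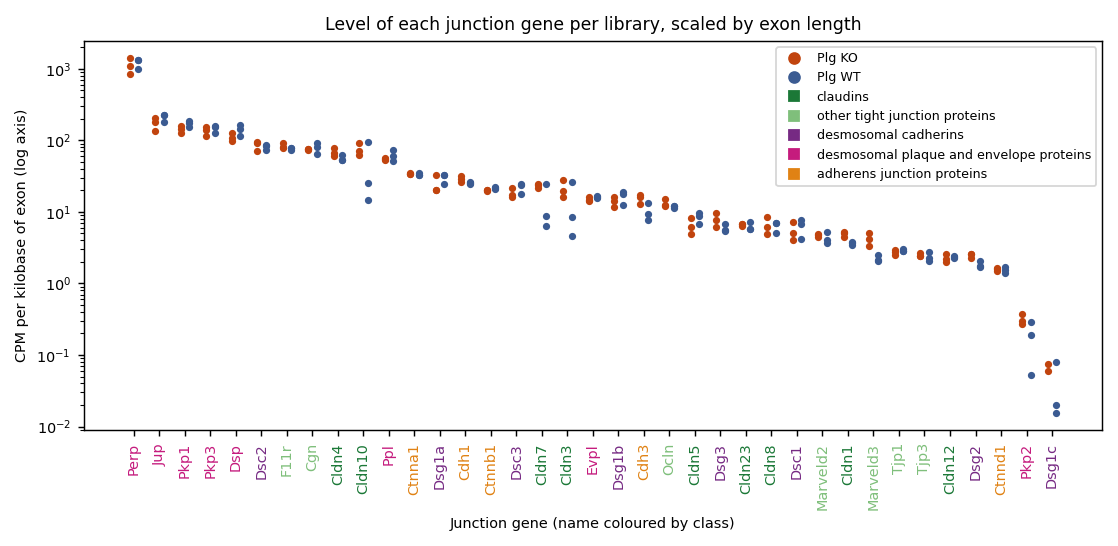
Level of each of the 37 junction genes in CPM per kilobase of exon (log axis), one point per library, with Plg KO left of Plg WT and gene names coloured by class; Plg KO 2 has no point for Dsg1c, where its count was 0. Perp stands above all others in both genotypes, and among genes above 1 CPM per kilobase the Plg WT libraries spread most for Cldn3, Cldn7 and Cldn10.

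For most junction genes the libraries of both genotypes overlapped. None of the 36 tested was called at an adjusted p under 0.05, against 0.237% of all 17757 tested genes (edgeR's quasi-likelihood fit, Benjamini-Hochberg over all genes). The smallest adjusted p was 0.143, for Marveld3. In simulated data edgeR found 30 of 95 genes set to change by 2-fold, so a missing call does not show equal levels. At an unadjusted p under 0.05 there were 6, all higher in Plg KO, namely Cldn1, Cldn4, Marveld3, Dsg2, Dsg3 and Cdh3. That is 16.7% of the 36, where 4.97% of all tested genes were higher in Plg KO by this criterion. Because the genes were chosen with earlier results of these data known, these shares are a description and not a test. None was lower, against 4.27% of all genes. The counts depended on single libraries. Without Plg WT 1, 7 were higher and 5 lower, without Plg KO 1, 3 were higher and 4 lower, and without Plg KO 2, 3 were higher and 0 lower. The share of all genes by this criterion is not given for these fits. Without Plg WT 1, 1.22% of all genes had an adjusted p under 0.05, against 0.237% with all libraries. Marveld3, Cldn1 and Dsg2 had an unadjusted p under 0.05 in all 14 fits, counting 13 alternatives. All these fits reuse the same libraries, so their agreement is not independent evidence. DESeq2 called 1 of the 36, Marveld3, against 2.27% of all genes, and limma-voom called 0, against 0.231%. The median log2 difference, Plg KO over Plg WT, was 0.04 over the 36 genes and -0.00 over all tested genes. The 3 Plg KO libraries lay above the 3 Plg WT libraries for 3 genes, or 8.33%, against 7.51% of all genes, and below them for 1 gene, or 2.78%, against 7.18%.

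By junction class, of 9 claudins 7 had a positive log2 difference (median 0.29), as did 5 of 7 other tight junction genes (median 0.13). Of 8 plaque and envelope genes 7 had a negative one (median -0.16), as did 4 of 7 tested desmosomal cadherins (median -0.20). Adherens junction genes had 4 positive and 1 negative, with a median of 0.04. These classes were not tested as groups, and 49.2% of all tested genes had a positive difference.

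**Figure D2:**
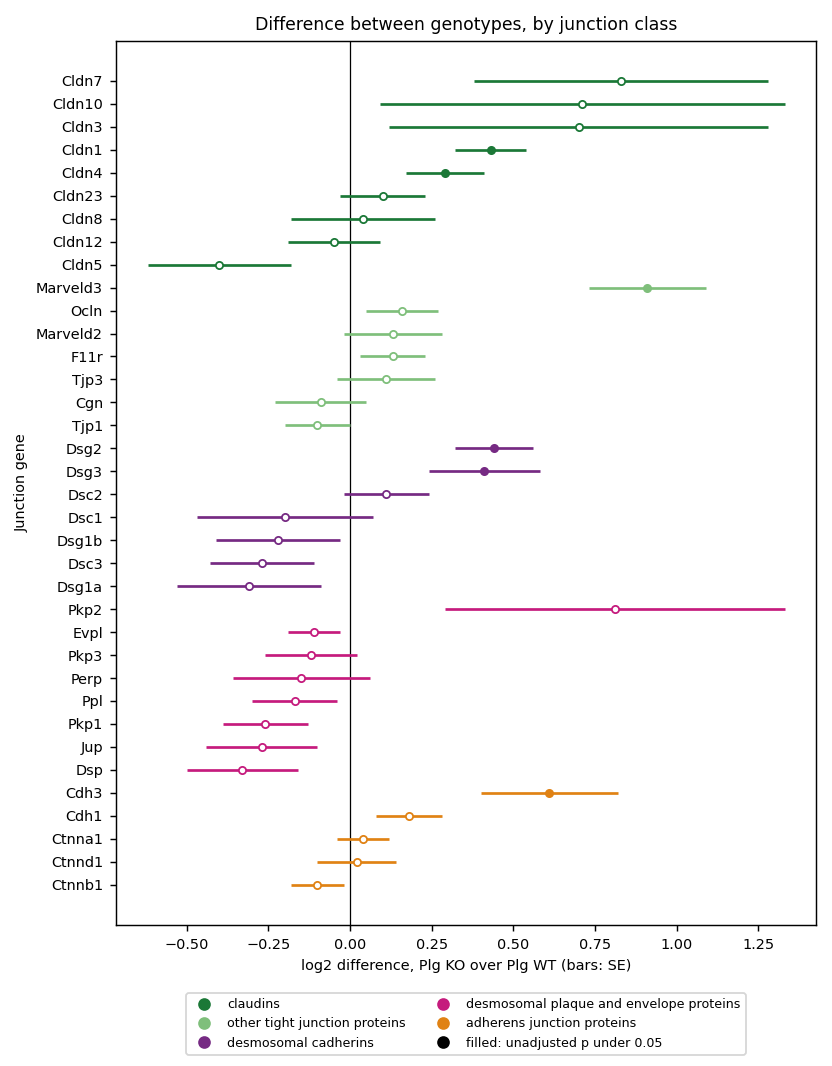
Log2 difference of Plg KO over Plg WT for the 36 tested junction genes, with SE bars, grouped and coloured by class; filled points mark an unadjusted p under 0.05. The 6 filled points all lie right of 0, and every plaque and envelope gene but Pkp2 lies left of it.

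Among the claudins, Cldn1 and Cldn4 had the smallest p. Cldn1 (chromosome 16, 26356642 to 26371841, GRCm38), the claudin whose loss makes mouse skin leak water, had 24.7, 25.7 and 21.5 CPM in Plg KO 1, 2 and 3 and 18.0, 16.8 and 18.5 CPM in Plg WT 1, 2 and 3. The groups did not overlap, and the log2 difference was 0.43 ± 0.11 (SE, adjusted p = 0.252). Cldn4 (chromosome 5, 134945119 to 134946934), a claudin that restricts the passage of sodium, had the highest mean per length of the claudins over all libraries. In Plg KO alone, Cldn10 was higher, at 74.3 against 68.9 CPM per kilobase. Cldn4 had 121.4, 143.0 and 111.2 CPM in Plg KO 1, 2 and 3 and 97.8, 113.3 and 96.4 CPM in Plg WT 1, 2 and 3. Plg KO 3 lay below Plg WT 2, so the groups overlapped, and the log2 difference was 0.29 ± 0.12 (adjusted p = 0.530).

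Cldn3, Cldn7 and Cldn10 divided the libraries in another way. Cldn10 (chromosome 14, 118787908 to 118875489), which forms pores for ions in secretory and kidney epithelia, had 160.7, 182.3 and 234.7 CPM in Plg KO 1, 2 and 3 and 248.8, 66.2 and 37.9 CPM in Plg WT 1, 2 and 3. Plg WT 1 was the highest of all 6 libraries, and Plg WT 2 and 3 were the lowest. Cldn7, a claudin found along the sides of many epithelial cells, had 42.6, 47.1 and 47.0 CPM in Plg KO and 47.5, 17.2 and 12.2 CPM in Plg WT, again highest in Plg WT 1 and lowest in Plg WT 2 and 3. Cldn3, a sealing claudin of simple epithelia, had 20.5, 24.5 and 35.7 CPM in Plg KO and 33.2, 10.6 and 5.83 CPM in Plg WT. Its 2 lowest libraries were again Plg WT 2 and 3. The log2 differences were 0.71 ± 0.62 for Cldn10, 0.83 ± 0.45 for Cldn7 and 0.70 ± 0.58 for Cldn3, with adjusted p-values of 0.797, 0.648 and 0.783.

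Most transcripts of glands and simple epithelia had the same lowest libraries as these claudins. Plg WT 2 and 3 were the 2 lowest for 9 of the 12 tested genes of that list, the other 3 being Krt7, Krt19 and Lpo. The share of all tested genes with these 2 lowest libraries is not given. Among the junction genes, Marveld2, Marveld3, Pkp2, Dsg2 and Ctnna1 also had Plg WT 2 and 3 lowest. For Marveld3 and Dsg2, Plg WT 1 lay below all Plg KO libraries too. Krt7, a keratin of ducts and simple epithelia, had 11.6, 11.2 and 20.2 CPM in Plg KO and 35.2, 14.1 and 19.1 CPM in Plg WT. Krt18, a keratin of simple epithelia, had 297.8, 323.9 and 412.9 CPM in Plg KO and 455.1, 130.3 and 74.6 CPM in Plg WT, the same order of libraries as Cldn10. The salivary mucin Muc5b ran from 7531.2 to 9349.9 CPM in Plg KO, and had 9998.6 CPM in Plg WT 1 against 2943.7 and 1580.6 CPM in Plg WT 2 and 3. The 13 glandular and simple epithelial genes, all with counts and 12 of them tested, summed to 9093.3 to 11415.6 CPM in Plg KO and to 1988.2 to 12025.6 in Plg WT. Of these 12, 0 were called by edgeR or DESeq2 and 0 had an unadjusted p under 0.05. Cldn2, a pore-forming claudin of secretory epithelia that stands outside the 37 genes, had 110.0, 123.0 and 159.1 CPM in Plg KO and 179.2, 42.5 and 30.0 CPM in Plg WT. With Plg WT 1 left out, edgeR called Cldn7, higher in Plg KO by 1.63 ± 0.16 on the log2 scale (adjusted p = 0.0270), and Cldn10, higher by 1.89 ± 0.27 (adjusted p = 0.0411). In that fit 1.22% of all genes were called, and so were 3 of the 12 glandular genes. Over all alternatives the adjusted p of Cldn7 ran from 0.0270 to 0.969 and that of Cldn10 from 0.0411 to 0.994. The part of gland content in the differences of these claudins, or of Marveld3 and Dsg2, was not tested.

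**Figure D3:**
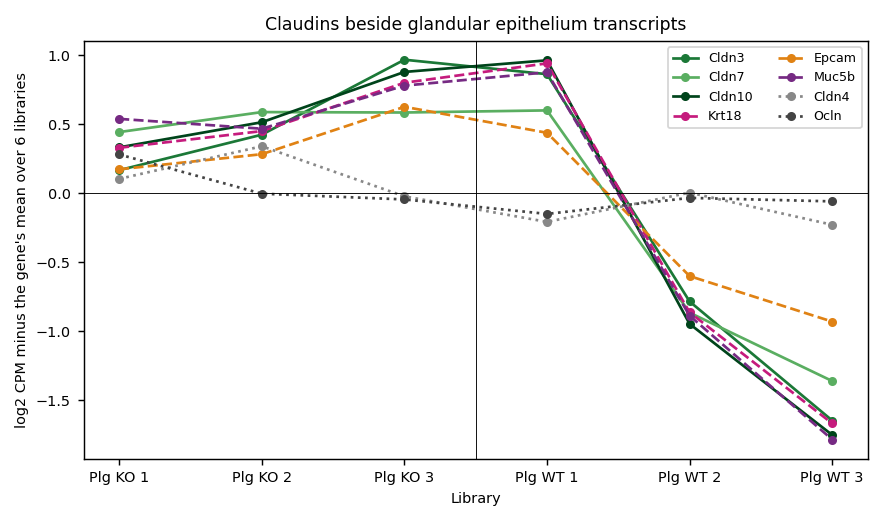
Log2 CPM of 8 genes in each library, relative to each gene's mean over the 6 libraries, with Plg KO libraries left and Plg WT libraries right; lines join the points of a gene only to guide the eye. Cldn3, Cldn7, Cldn10 and the glandular transcripts Krt18, Epcam and Muc5b are lowest in Plg WT 2 and Plg WT 3, whereas Cldn4 and Ocln vary little.

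For the remaining claudins the unadjusted p was above 0.05. Cldn5, the main claudin of blood vessel endothelium, had 6.96, 8.82 and 11.5 CPM in Plg KO and 12.6, 13.7 and 9.74 CPM in Plg WT, a log2 difference of -0.40 ± 0.22 (adjusted p = 0.646). The summed level of 10 endothelial markers, of which edgeR and DESeq2 called 0 and 0 had an unadjusted p under 0.05, was 117.2 to 172.4 CPM in Plg KO and 148.2 to 185.9 in Plg WT. Cldn8, Cldn12 and Cldn23 had log2 differences of 0.04, -0.05 and 0.10, with 95% intervals of -0.48 to 0.57, -0.38 to 0.27 and -0.21 to 0.41.

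The sequences before the transcription start are shown for the claudins above, 2 with a small unadjusted p and 2 that were lowest in Plg WT 2 and 3. They are the 250 bases upstream of the most upstream RefSeq start, on GRCm38.p6, and capitals mark CAGGTG or its reverse complement CACCTG, an E-box that the epithelial repressors Snai1, Snai2, Zeb1 and Zeb2 are known to bind.
Cldn1 (chr16:26371840-26372089, minus strand): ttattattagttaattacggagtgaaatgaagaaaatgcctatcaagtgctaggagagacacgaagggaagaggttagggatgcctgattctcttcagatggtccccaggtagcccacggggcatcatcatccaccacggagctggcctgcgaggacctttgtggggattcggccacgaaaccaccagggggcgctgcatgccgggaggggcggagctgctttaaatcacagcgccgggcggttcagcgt
Cldn4 (chr5:134946935-134947184, minus strand): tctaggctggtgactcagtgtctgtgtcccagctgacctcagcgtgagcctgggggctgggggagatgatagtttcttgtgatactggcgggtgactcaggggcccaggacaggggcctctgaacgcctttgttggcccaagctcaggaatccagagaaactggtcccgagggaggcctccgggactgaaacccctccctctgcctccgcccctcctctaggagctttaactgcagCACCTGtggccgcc
Cldn7 (chr11:69964529-69964778, plus strand): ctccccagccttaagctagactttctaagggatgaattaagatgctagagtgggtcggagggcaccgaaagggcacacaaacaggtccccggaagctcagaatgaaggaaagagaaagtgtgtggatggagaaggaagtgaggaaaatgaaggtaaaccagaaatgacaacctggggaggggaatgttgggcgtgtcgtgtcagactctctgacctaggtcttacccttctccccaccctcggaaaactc
Cldn10 (chr14:118787621-118787870, plus strand): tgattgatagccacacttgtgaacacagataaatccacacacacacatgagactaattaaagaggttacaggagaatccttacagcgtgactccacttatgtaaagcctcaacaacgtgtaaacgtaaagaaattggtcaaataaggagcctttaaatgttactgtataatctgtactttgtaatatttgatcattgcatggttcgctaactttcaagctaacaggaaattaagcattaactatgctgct
Only the Cldn4 window of these 4 held the motif, 1 match that begins 14 bases before the start. Of the 37 genes 17 matched RefSeq promoter windows, and 6 of their 26 windows held it, against 17.2% of all 32851 windows. The 5 genes with a match were Cldn4, Cldn7 (in its other window), F11r, Ocln and Tjp3.

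Outside the claudins, Marveld3 differed most among tight junction genes. Marveld3 (chromosome 8, 109947914 to 109962203) encodes a membrane protein of the occludin family. It had 504, 282 and 592 counts in Plg KO 1, 2 and 3 and 297, 198 and 209 counts in Plg WT 1, 2 and 3. Scaled to CPM, all Plg KO libraries lay above all Plg WT libraries, at 13.7 ± 2.82 CPM in Plg KO and 7.29 ± 0.731 in Plg WT (SD, n = 3 each). The log2 difference was 0.91 ± 0.18 (95% interval 0.49 to 1.33), which is 1.88-fold. It missed the threshold in edgeR's fit (adjusted p = 0.143) and in limma-voom (adjusted p = 0.171) and passed it in DESeq2 (adjusted p = 0.00224), and over all alternatives the adjusted p ran from 0.00224 to 0.549.

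Its relatives did not share that difference in size. Ocln, which encodes occludin, had a log2 difference of 0.16 (95% interval -0.09 to 0.42), and Marveld2, which encodes tricellulin, the protein of corners where 3 cells meet, had 0.13 (-0.23 to 0.48). F11r had 242.2, 218.1 and 204.8 CPM in Plg KO and 192.5, 209.4 and 206.7 CPM in Plg WT, a log2 difference of 0.13 ± 0.10. Cgn had 452.9, 453.6 and 440.5 CPM in Plg KO and 388.5, 561.2 and 480.0 CPM in Plg WT, and its Plg WT libraries enclosed all Plg KO values. The ZO proteins Tjp1 and Tjp3, which link strands to actin, had log2 differences of -0.10 and 0.11, with intervals of -0.34 to 0.13 and -0.25 to 0.46.

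**Figure D4:**
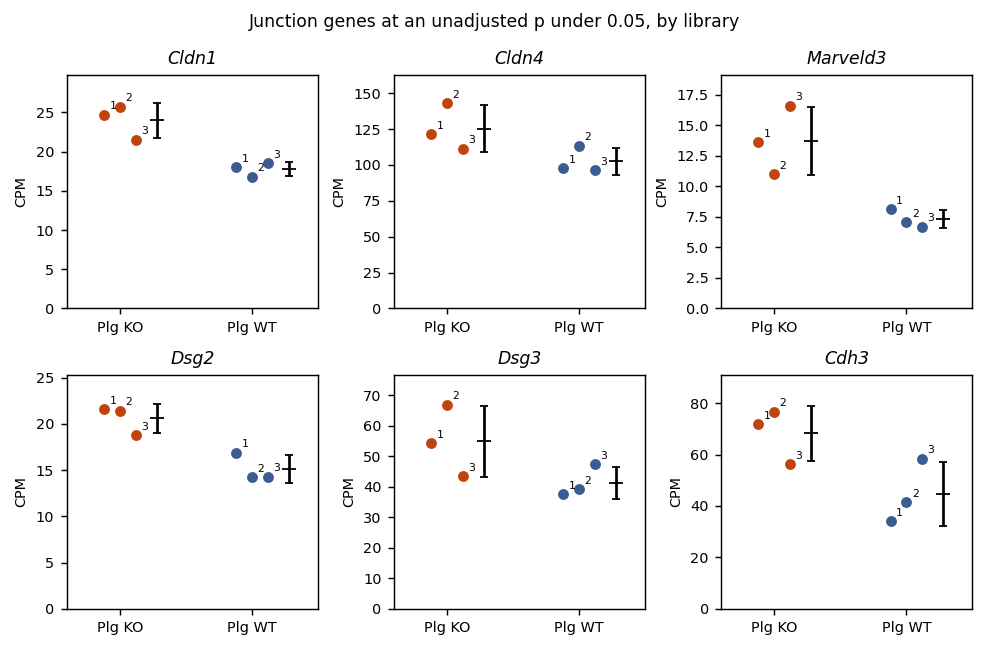
CPM in each library for the 6 junction genes with an unadjusted p under 0.05, Plg KO left and Plg WT right, numbered by replicate, with the mean and SD beside the points. The genotypes separate for Cldn1, Marveld3 and Dsg2 and overlap for Cldn4, Dsg3 and Cdh3.

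The desmosomal cadherins, a gene cluster on mouse chromosome 18, differed in both directions. Dsg2, a desmoglein of simple epithelia and of basal cells, had 21.6, 21.4 and 18.8 CPM in Plg KO 1, 2 and 3 and 16.9, 14.2 and 14.3 CPM in Plg WT 1, 2 and 3. Its groups did not overlap, with a log2 difference of 0.44 ± 0.12 (adjusted p = 0.282). Dsg3, the desmoglein of oral mucosa that pemphigus vulgaris antibodies attack, had 54.2, 66.9 and 43.5 CPM in Plg KO and 37.6, 39.1 and 47.3 CPM in Plg WT. Plg KO 3 lay below Plg WT 3, and the log2 difference was 0.41 ± 0.17 (adjusted p = 0.522). Dsg1a, one of 3 mouse copies of the desmoglein of upper cell layers, had 187.4, 113.7 and 114.7 CPM in Plg KO and 141.2, 185.9 and 187.6 CPM in Plg WT. Plg KO 1 was as high as Plg WT 2 and 3, and the log2 difference was -0.31 ± 0.22 (adjusted p = 0.741). Dsg1b had a log2 difference of -0.22 (95% interval -0.66 to 0.22). Dsg1a, Dsg1b and Dsg1c are close copies, and the treatment of reads that match several of them is not stated, so the division between them is uncertain.

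The desmocollins, the partners of desmogleins across the cell gap, overlapped between genotypes. Dsc2 had 489.4, 497.0 and 380.3 CPM in Plg KO and 384.8, 450.3 and 435.1 CPM in Plg WT, a log2 difference of 0.11 ± 0.13. Dsc3 and Dsc1, which mark lower and upper layers of skin, had log2 differences of -0.27 ± 0.16 and -0.20 ± 0.27.

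Ratios within a library do not depend on its scaling, and 4 were computed after the values had been seen, with no test. Dsg3 over the sum of Dsg1a and Dsg1b, per length, was 0.158, 0.280 and 0.196 in Plg KO 1, 2 and 3 and 0.145, 0.108 and 0.133 in Plg WT 1, 2 and 3. The ratio of Dsc2 to Dsc3 was 4.26, 5.39 and 4.52 in Plg KO and 4.04, 3.61 and 3.32 in Plg WT. For both of these the Plg KO libraries lay above the Plg WT libraries. Cdh3 over Cdh1 was 0.536 ± 0.0557 in Plg KO and 0.401 ± 0.123 in Plg WT, and Jup over Ctnnb1 was 8.63 ± 1.53 in Plg KO and 9.78 ± 1.02 in Plg WT (SD, n = 3 each), with overlapping libraries in both cases. Of 10 suprabasal markers 2 had a positive and 8 a negative log2 difference. Krt10, a keratin of cornifying layers, had 561.7, 231.6 and 179.5 CPM in Plg KO and 343.7, 480.9 and 542.9 CPM in Plg WT, and Krt76 had 5335.4, 3598.9 and 3079.2 CPM in Plg KO and 4385.2, 5710.0 and 5821.5 CPM in Plg WT. The log2 differences of Krt10 and Krt76 were -0.49 ± 0.41 and -0.41 ± 0.23 (adjusted p = 0.786 and 0.657 in edgeR's fit). Krt4, a mucosal keratin, and Krtdap went the other way, with log2 differences of 0.13 and 0.14. Of these 10 and of 7 basal markers edgeR and DESeq2 called 0. An unadjusted p under 0.05 was reached by 2 suprabasal genes, Lor and Krt2, both with a negative difference. Krt2 had at most 64 counts in any library. Among the basal genes 2 reached an unadjusted p under 0.05, 1 in each direction. Of all tested genes, 4.97% were higher and 4.27% lower by this criterion. The sums overlapped, at 31068.2 to 38647.9 CPM in Plg KO and 29121.8 to 38679.1 in Plg WT for suprabasal genes, and at 16061.4 to 18779.9 CPM in Plg KO and 17832.2 to 19506.9 in Plg WT for basal genes. Their part in the desmosomal ratios was not tested.

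**Figure D5:**
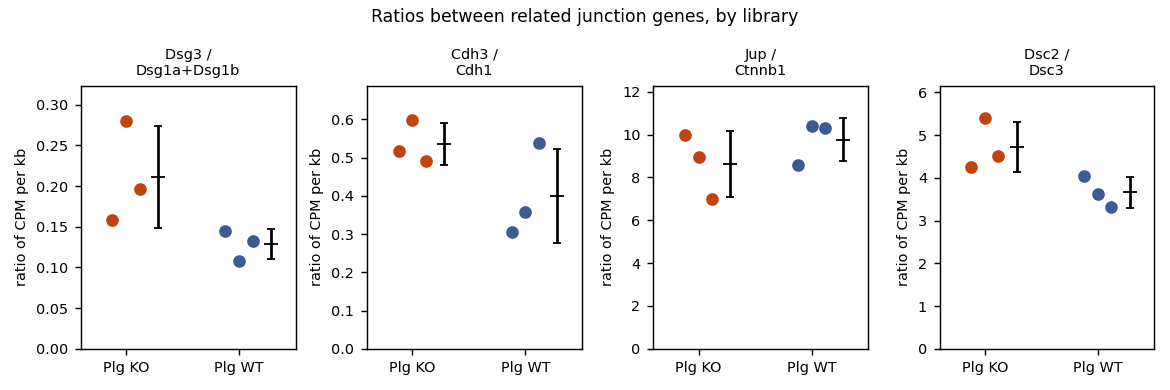
Ratios of CPM per kilobase between related junction genes in each library, Plg KO left and Plg WT right, with the mean and SD beside the points. Plg KO libraries lie above Plg WT libraries for Dsg3 over Dsg1a plus Dsg1b and for Dsc2 over Dsc3, and the groups overlap for the other ratios.

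The plaque and envelope genes except Pkp2 were abundant, and these 7, all above 50 CPM, had log2 differences between -0.33 and -0.11. Pkp2 had one of 0.81 ± 0.52. For all 8 the groups overlapped, and 0 had an unadjusted p under 0.05. Jup had 1314.6, 1172.0 and 877.2 CPM in Plg KO 1, 2 and 3 and 1168.7, 1441.3 and 1460.2 CPM in Plg WT 1, 2 and 3. Plg KO 3 was lowest and Plg KO 1 lay within the Plg WT range, for a log2 difference of -0.27 ± 0.17 (adjusted p = 0.706). Perp had 2723.4, 2146.4 and 1627.3 CPM in Plg KO and 1951.4, 2620.7 and 2625.9 CPM in Plg WT, so that Plg KO 1 was the highest of the 6 libraries and Plg KO 3 the lowest. Its log2 difference was -0.15 ± 0.21.

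Dsp, the link from the plaque to keratin filaments, averaged 1074.2 ± 137.2 CPM in Plg KO and 1353.8 ± 250.2 in Plg WT (SD, n = 3 each), a log2 difference of -0.33 ± 0.17 (adjusted p = 0.618). Pkp1, a plakophilin of upper epithelial layers, had a log2 difference of -0.26 (95% interval -0.56 to 0.04) and Pkp3 one of -0.12 (-0.46 to 0.22). Evpl and Ppl, which encode envoplakin and periplakin of the cornified envelope, had -0.11 (-0.30 to 0.08) and -0.17 (-0.48 to 0.15). Pkp2, at 54, 52 and 58 counts in Plg KO and 57, 8 and 32 counts in Plg WT, had the widest interval of the class, -0.41 to 2.02.

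Among adherens junction genes Cdh3 differed most. Cdh3 (chromosome 8, 106510891 to 106557297) encodes P-cadherin, the cadherin of basal keratinocytes. It had 71.8, 76.7 and 56.3 CPM in Plg KO 1, 2 and 3 and 34.1, 41.5 and 58.4 CPM in Plg WT 1, 2 and 3. Plg WT 3 lay above Plg KO 3, and the log2 difference was 0.61 ± 0.21 (adjusted p = 0.395). Cdh1, its neighbour on the chromosome and the gene of E-cadherin, had 144.9, 133.8 and 119.5 CPM in Plg KO and 117.0, 120.9 and 113.0 CPM in Plg WT. Plg KO 3 lay below Plg WT 2, and the log2 difference was 0.18 ± 0.10 (95% interval -0.04 to 0.41).

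The catenins varied little. Ctnna1, the actin-binding alpha-catenin, had 217.3, 226.5 and 218.2 CPM in Plg KO and 222.5, 208.1 and 212.7 CPM in Plg WT, a log2 difference of 0.04 (95% interval -0.15 to 0.23). Ctnnb1, the gene of beta-catenin, had 106.2, 105.8 and 101.4 CPM in Plg KO and 109.6, 111.3 and 114.6 CPM in Plg WT. The groups did not overlap, with a log2 difference of -0.10 ± 0.08 (adjusted p = 0.764). Ctnnd1, whose product p120-catenin keeps cadherins at the surface, had a log2 difference of 0.02 (-0.27 to 0.30).

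Of 44 further junction genes 43 were matched and 32 tested, and edgeR called 0 of them (at an unadjusted p under 0.05, 1 was higher, against 4.97% of all genes, and 2 were lower, against 4.27%), with a median log2 difference of -0.03. Marveld1, a relative of Marveld3, had 12.9, 13.5 and 13.2 CPM in Plg KO and 18.7, 18.3 and 17.7 CPM in Plg WT, a log2 difference of -0.46 ± 0.10 (adjusted p = 0.172, against 0.0223 in DESeq2 and up to 0.643 over the alternatives). Its groups did not overlap and its difference had the opposite sign to that of Marveld3. Cldn19, a claudin of myelinating Schwann cells and kidney, had 0.864, 1.13 and 1.65 CPM in Plg KO and 2.87, 4.39 and 2.24 CPM in Plg WT, a log2 difference of -1.38 ± 0.36 (adjusted p = 0.249, against 0.0262 in DESeq2 and up to 0.714 over the alternatives). The 5 Schwann cell markers, Cldn19 among them, summed to 42.0 to 92.5 CPM in Plg KO and to 69.9 to 148.9 in Plg WT. All 5 had a negative log2 difference, and 2 were lower at an unadjusted p under 0.05, against 4.27% of all genes. Of the 5, edgeR called 0 and DESeq2 called 1, Cldn19. Their part in the Cldn19 value was not tested. The tight junction scaffold Patj had a log2 difference of 0.42 ± 0.13 (adjusted p = 0.359), Tjap1 one of -0.22 ± 0.09 (adjusted p = 0.544) and the polarity protein Crb3 one of 0.26 ± 0.12 (adjusted p = 0.583).

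Of 13 transcription factors known to control junction genes edgeR called 0, and 2 had an unadjusted p under 0.05, both lower. That is 15.4% of the 13, against 4.27% of all genes. Zeb1, a repressor of Cdh1, had 2.67, 3.57 and 3.81 CPM in Plg KO and 5.10, 4.50 and 6.31 CPM in Plg WT, and Zeb2 had 3.19, 3.53 and 5.52 CPM in Plg KO and 5.62, 6.85 and 6.21 CPM in Plg WT. For both, the Plg KO libraries lay below the Plg WT libraries, as they did for 7.18% of all genes. The log2 differences were -0.66 ± 0.22 and -0.61 ± 0.24 (adjusted p = 0.376 and 0.486). Twist1 had a log2 difference of -0.58 ± 0.30, Ovol2 one of 0.36 ± 0.23 and Snai2 one of 0.19 ± 0.18. Zeb1, Zeb2 and Twist1 are also transcribed in connective tissue, where 6 fibroblast markers summed to 1386.9 to 2552.3 CPM in Plg KO and to 2174.8 to 3677.6 in Plg WT, all 6 with a negative log2 difference. Of them 3 were lower at an unadjusted p under 0.05, against 4.27% of all genes, and edgeR and DESeq2 called 0. The part of connective tissue in the Zeb1 and Zeb2 values was not tested.

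Transcripts listed as neutrophil markers and a marker of the junctional epithelium had higher levels in Plg KO. The 6 neutrophil markers summed to 175.6 to 536.3 CPM in Plg KO and to 38.6 to 72.4 CPM in Plg WT. Of these 6, edgeR called 1 as higher, the gelatinase gene Mmp9, at 65.9, 49.2 and 40.6 CPM in Plg KO and 10.6, 7.25 and 4.97 CPM in Plg WT (adjusted p = 0.0245), against 0.237% of all genes called. Mmp9 was highest in Plg KO 1, whereas the other markers, S100a8, S100a9, Csf3r, Cxcr2 and Retnlg, were highest in Plg KO 2. DESeq2 called 5 of the 6, against 2.27% of all genes. All 6 were higher at an unadjusted p under 0.05 in edgeR's fit, against 4.97% of all genes. For all 6 the Plg KO libraries lay above the Plg WT libraries, against 7.51% of all genes. Odam, a protein of the epithelium that seals gum to tooth, had 1005.0, 1099.8 and 1008.8 CPM in Plg KO and 796.5, 655.7 and 625.9 CPM in Plg WT, a log2 difference of 0.58 ± 0.12 (adjusted p = 0.166, against 0.00303 in DESeq2). Amtn, the other matched marker of that epithelium, had at most 0.420 CPM in any library. The part of these cells in the junction gene values was not tested.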

How the data were processed

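Gingival total RNA from 3 Plg KO and 3 Plg WT libraries was sequenced as 37 bp paired-end reads from Nextera XT libraries, per the labels' protocols. That kit does not mark strand, so reads of overlapping genes cannot be told apart. The submitters' processing notes name STAR 2.5.2a, edgeR, limma and DESeq2 with GRCm38.p3 and mm10, without roles, and do not give the counting tool.

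The authors deposited raw counts per gene, used for all tests, and TMM-scaled CPM, used here for gene symbols. Multiplying the CPM by 1 constant per library gave whole reads for 100% of values, within 0.01 of the value or 0.01 read, which equalled the raw counts in 100% of cases, and a fit on these reads called 42 genes. Large counts pass this tolerance trivially. The 22 entries that name no gene held at most 3.55e-05% of a library and were left out. No 2 libraries were copies: the lowest chi-square per degree of freedom of a pair was 21.4, over genes with at least 20 counts.

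The main test was edgeR 4.0.16 (R 4.3.3), a quasi-likelihood F test on genotype with filterByExpr and TMM, over 17757 genes, with a common biological coefficient of variation of 0.225. SE is the log2 difference divided by the square root of F, and intervals are 95% t intervals from it. A count of 0 allows up to 3 counts, or 0.0824 to 0.115 CPM, and reads carry no molecular identifiers, so this covers counting error only. Exon lengths and positions came from GENCODE M21 (GRCm38), and levels per length use the union of all annotated exons. Alternatives used DESeq2 1.42.0, limma 3.58.1 (voom), other scaling and filters, a replicate block, and leaving out each library. In data simulated for Plg KO against Plg WT over 17397 genes, edgeR found 30 of the 95 genes set to change by 2-fold and 74 of the 97 set to 4-fold, and called 8 of 17205 unchanged genes.

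The 37 genes and the lists were chosen with earlier results of these data known. Values in every library are given for genes at an unadjusted p under 0.05 and for the 2 highest per length in each class, and the 5 further junction genes and 5 regulators with the smallest p are named. Cldn3, Cldn5, Cldn7, Cldn2, Pkp2, Dsg1c, Ctnnb1, Odam, Muc5b, Mmp9 and the keratins were given by library after their values were seen. Cldn25 and Scpppq1 were not matched.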

Additional observations from a re-analysis of the deposited data

How the results depend on the processing

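The count of called genes depended on the method and on single libraries. It was 42 in the edgeR fit, 403 with DESeq2, 162 without a filter and 2 with the replicate block, and 2 to 219 when 1 library was left out (219 without Plg WT 1, 2 without Plg WT 2, 3 without Plg WT 3, Plg KO 2 or Plg KO 3). Of the 36 junction genes, DESeq2 called 1, Marveld3, and leaving out 1 library gave 0 to 2, the 2 being Cldn7 and Cldn10 without Plg WT 1. The other alternatives called 0 of the 36. Genes of the 36 at an unadjusted p under 0.05 numbered 6 in the edgeR fit and 3 to 12 with 1 library left out, fewest without Plg KO 2 and most without Plg WT 1. This count was followed after seeing the data. The share of all genes by that criterion is not given for the fits with 1 library left out. The median log2 difference of the 36 moved by less than the spread between libraries in all alternatives run. The cause of these differences was not tested.

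The sign changed for 5 of 46 genes followed over 13 alternatives, all with small differences. With 1 library left out, the log2 difference ran from -0.19 to 0.21 for Cldn8 (lowest without Plg KO 1, and -0.10 without Plg WT 3), from -0.16 to 0.03 for Cldn12 (highest without Plg KO 1), from -0.21 to 0.05 for Cgn (highest without Plg WT 2), from -0.35 to 0.02 for Perp (highest without Plg KO 3) and from -0.04 to 0.08 for Ctnnd1 (lowest without Plg WT 2, and -0.01 without Plg KO 1). A fit on reads recovered from CPM was added after seeing the data and called 42 genes.

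Libraries share replicate numbers across genotypes, and the values showed no pairing by number. Deviations of same-numbered libraries from their group means correlated at -0.255, -0.0131 and -0.225 across genes, which are not independent replicates, and no library correlated best with its own number. Deviations from a mean of 3 libraries are tied to each other, so this check cannot exclude a pairing. With the replicate block, 2 genes and 0 junction genes were called, and the median of the junction genes was 0.03.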

Other observations

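Gap junction genes, whose connexins form channels between neighbouring cells, were read out as a list added after the other values had been seen. Of 15 connexin genes 12 were tested and edgeR called 0 (0 at an unadjusted p under 0.05), with 6 positive and 6 negative log2 differences and a median of -0.03. The smallest adjusted p was 0.700, for Gjb5. Gja1, the gene of connexin 43, was the most abundant, with 7822.4, 7136.0 and 6181.4 CPM in Plg KO 1, 2 and 3 and 4771.8, 7341.9 and 6565.0 CPM in Plg WT 1, 2 and 3. Plg WT 1 was the lowest library and the groups overlapped, with a log2 difference of 0.18 ± 0.19 (adjusted p = 0.843). Gjb2, the gene of connexin 26, averaged 130.1 CPM in Plg KO and 129.2 in Plg WT, and Gjb6, the gene of connexin 30, averaged 98.8 CPM in Plg KO and 105.6 in Plg WT. Gjb1, a connexin of glandular cells, had 5.48, 9.17 and 10.0 CPM in Plg KO and 8.30, 4.82 and 2.15 CPM in Plg WT, so its 2 lowest libraries were Plg WT 2 and 3, as for Cldn3, Cldn7 and Cldn10.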
